A study of Mus musculus with 8 samples.

Results

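The fibrillar and microfibrillar collagen chains measured here are the products of 10 genes, *Col1a1*, *Col1a2*, *Col3a1*, *Col5a1*, *Col5a2*, *Col5a3*, *Col6a1*, *Col6a2*, *Col6a3* and *Col14a1*. They were chosen by symbol from the 24940 genes of the deposited count table, and all 10 were found. Liver RNA was sequenced from 4 *FxrKO* males (livers 1 to 4) and 4 *Bcl6LKOFxrKO* males (livers 5 to 8) on a C57BL/6 background. Both groups lacked *Fxr* in the whole body and carried homozygous floxed *Bcl6* alleles, so the loss of FXR is shared by all 8 livers. The *Bcl6LKOFxrKO* males also carried Alb-Cre, in which the Albumin promoter drives Cre and *Bcl6* is deleted in hepatocytes, while the *FxrKO* males carried no Cre. The labels give no age. Livers of mice with intact *Fxr* were not analysed here, so every comparison is of *Bcl6LKOFxrKO* against *FxrKO* livers.

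Collagens are secreted as trimers of chains. Types I and III form the bulk of the banded fibrils of connective tissue, and type V is built into the same fibrils and helps to start them and to set their width. Type VI forms a separate network of beaded microfibrils close to cells, and type XIV is a fibril-associated collagen that binds to the surface of fibrils. In the liver these chains are made mainly by hepatic stellate cells and portal fibroblasts, and they accumulate in the scar tissue of fibrosis.

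The livers had between 7586241 and 11839503 counts on genes, of which 1469 to 4208 lay on the 10 collagen genes. A single gene of the set had between 31 and 1129 counts in a liver, so counting error was largest for *Col5a2*. *Bcl6* was at 21.1 to 65.1 CPM (a gene's counts relative to the total of its library, adjusted with edgeR's TMM factors) in *FxrKO* livers and at 4.61 to 11.9 in *Bcl6LKOFxrKO* livers, so the targeted gene followed the labels in all 8 livers. *Nr1h4*, the gene of FXR, was still counted at 56.7 to 62.6 CPM in *FxrKO* livers and 39.4 to 48.1 CPM in *Bcl6LKOFxrKO* livers, and reads on its exons do not check the deletion. *Alb* took 4.04% to 5.16% of all counts in *FxrKO* livers and 11.9% to 13.2% in *Bcl6LKOFxrKO* livers. With total counts alone as the scaling, the median log2 fold change of all tested genes shifted by -0.16.

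Most of the collagen chains were higher in *Bcl6LKOFxrKO* livers. Of the 10 genes, all of which passed the expression filter, 8 rose and 0 fell at an adjusted p under 0.05 (edgeR's quasi-likelihood test, adjusted over 12340 tested genes). The 2 that did not pass were *Col1a1* and *Col5a3*. Among all tested genes, 16.2% were called higher and 13.5% were called lower. All 10 log2 fold changes were positive in edgeR, the lowest being 0.04, and DESeq2 and limma voom also called 0 chains lower. The median log2 fold change of the 10 chains was 0.92, which is 1.89-fold, beside 0.01 for all tested genes. With total counts alone as the scaling, 8 chains were still called and their median was 0.75, while the share of higher genes among all called genes went from 54.5% to 32.2%. In 7 of the 10 genes, all 4 *Bcl6LKOFxrKO* livers were above all 4 *FxrKO* livers, a separation that 16.1% of all tested genes had. Whole-liver RNA cannot tell a larger number of collagen-producing cells from more collagen RNA per cell.

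**Figure D1:**
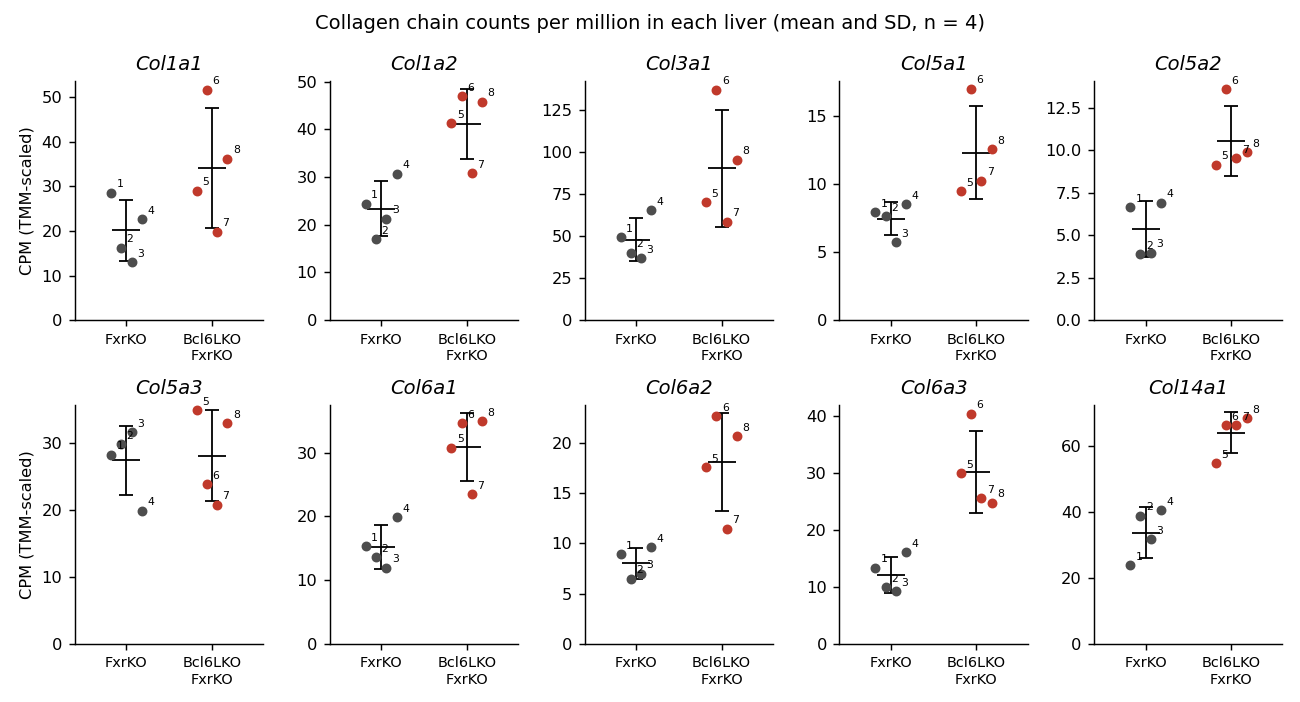
CPM of each collagen chain (vertical axis, starting at 0) in 4 *FxrKO* livers (grey) and 4 *Bcl6LKOFxrKO* livers (red), with livers numbered as in the text and black bars for the mean and SD. In 7 panels the red points lie wholly above the grey ones, and in those of *Col1a1*, *Col3a1* and *Col5a3* the groups overlap.

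The log2 fold changes ranged from 0.04 for *Col5a3* to 1.30 for *Col6a3*. The quartiles of all tested genes were -0.28 and 0.36, and 9 of the 10 chains were above the upper one.

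**Figure D2:**
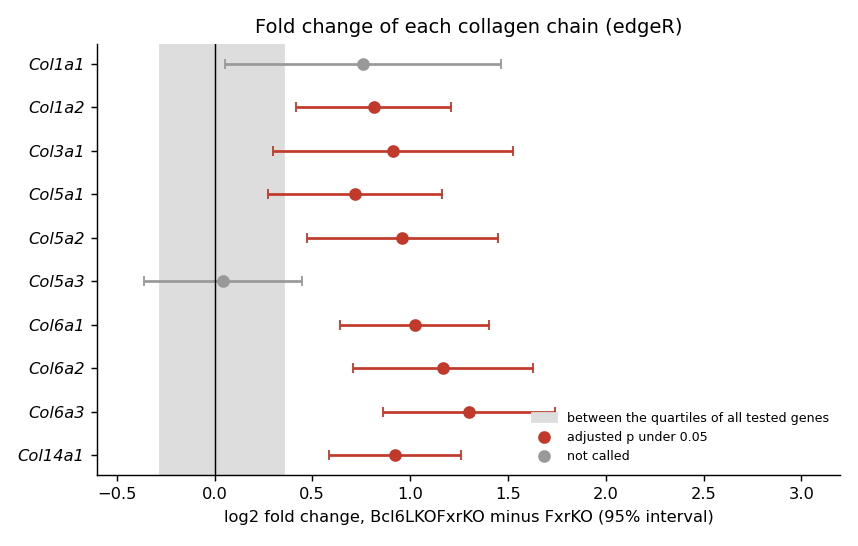
Log2 fold change of each chain, *Bcl6LKOFxrKO* minus *FxrKO* (horizontal axis), with its 95% interval from edgeR, in red where the adjusted p was under 0.05, and the range between the quartiles of all tested genes shaded. The 3 type VI chains have the highest estimates, from 1.02 to 1.30, and *Col5a3* lies at 0.04.

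The type I chains are considered first. *Col1a1* (NM_007742, mm10 chromosome 11 from 94936224 to 94953042, plus strand) encodes the more abundant chain of the type I trimer. It was at 28.6, 16.2, 13.0 and 22.7 CPM in *FxrKO* livers 1 to 4 and at 29.1, 51.8, 19.8 and 36.3 CPM in *Bcl6LKOFxrKO* livers 5 to 8. Livers 5, 6 and 8 were above all *FxrKO* livers and liver 7 was below 2 of them, so the groups overlapped. Its CPM also varied more than that of the other chains within *FxrKO* livers, with a coefficient of variation of 34.5%. The means were 20.1 ± 6.93 and 34.2 ± 13.5 CPM (SD, n = 4 in each genotype), and the log2 fold change of 0.76 (95% interval 0.05 to 1.47) missed the threshold in edgeR (adjusted p = 0.10). DESeq2 gave an adjusted p of 0.0427, and *Col1a1* was also called by edgeR without liver 1 (adjusted p = 0.0448) or without liver 7 (adjusted p = 0.0284). Over all alternatives its adjusted p was between 0.0284 and 0.231.

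*Col1a2* (NM_007743, chromosome 6 from 4505618 to 4541543, plus strand), the other chain of type I collagen, was at 24.4, 17.0, 21.3 and 30.7 CPM in *FxrKO* livers and 41.2, 46.9, 30.7 and 45.8 CPM in *Bcl6LKOFxrKO* livers. The groups did not overlap, but liver 7, the lowest of its group at 30.74 CPM, was only just above liver 4 at 30.71 CPM. *Col1a2* rose by 0.81 on the log2 scale (SE 0.18, edgeR adjusted p = 0.00498), with an exact two-sided permutation p of 0.029. No smaller value is possible with 4 livers in each genotype. It was called in all 15 alternatives.

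*Col3a1* (NM_009930, chromosome 1 from 45311538 to 45349706, plus strand) encodes the single chain of type III collagen, which lies in the same fibrils as type I and makes up reticular fibres. Its CPM was 49.1, 39.9, 36.6 and 65.1 in *FxrKO* livers and 69.8, 136.8, 58.4 and 95.3 in *Bcl6LKOFxrKO* livers. Liver 7 was below liver 4, and liver 6 was the highest of all. *Col3a1* rose by 0.91 on the log2 scale (SE 0.27, edgeR adjusted p = 0.0317), and the exact permutation p was 0.057. The call was lost with limma voom (adjusted p = 0.0642), without the filter on low counts (0.0798) and in edgeR without liver 1 (0.059), liver 2 (0.0783), liver 3 (0.0735) or liver 8 (0.115), each with a positive log2 fold change.

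Of the 3 type V chains, 2 were called. *Col5a1* (NM_015734, chromosome 2 from 27886425 to 28039510, plus strand) encodes the chain found in nearly all type V trimers. It was at 7.90, 7.61, 5.69 and 8.50 CPM in *FxrKO* livers and at 9.46, 17.0, 10.2 and 12.5 CPM in *Bcl6LKOFxrKO* livers, with no overlap. Its log2 fold change was 0.72 (SE 0.21, edgeR adjusted p = 0.0192), and the call was lost without liver 3 (adjusted p = 0.0636) or liver 6 (adjusted p = 0.0587).

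*Col5a2* (NM_007737, chromosome 1 from 45374331 to 45503282, minus strand) encodes the partner chain of *Col5a1* in the common type V trimer, and its gene lies next to *Col3a1*. It was counted at 6.65, 3.87, 3.97 and 6.90 CPM in *FxrKO* livers and at 9.15, 13.6, 9.53 and 9.88 CPM in *Bcl6LKOFxrKO* livers. All *Bcl6LKOFxrKO* livers were higher, and livers 5, 7 and 8 lay close together below liver 6. *Col5a2* rose by 0.96 on the log2 scale (SE 0.23, edgeR adjusted p = 0.00652) and was called in all 15 alternatives.

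*Col5a3* (NM_001317388, chromosome 9 from 20770057 to 20815067, minus strand) encodes a further type V chain that can replace the others in part of the trimers. Its CPM was 28.3, 29.8, 31.7 and 19.9 in *FxrKO* livers and 34.9, 23.9, 20.8 and 33.0 in *Bcl6LKOFxrKO* livers. The groups overlapped almost completely, and the lowest value of each came from liver 4 and liver 7. The log2 fold change was 0.04 with a 95% interval from -0.36 to 0.45 (adjusted p = 0.889 from edgeR), and it was -0.12 with total counts alone as the scaling. The interval of this chain allows a rise of up to 0.45 on the log2 scale, which is below the estimates of the other 9 chains.

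All 3 type VI chains rose. *Col6a1* (NM_009933, chromosome 10 from 76708792 to 76726044, minus strand) was at 15.3, 13.6, 11.9 and 19.8 CPM in *FxrKO* livers and at 30.8, 34.7, 23.4 and 34.9 CPM in *Bcl6LKOFxrKO* livers. The highest *FxrKO* liver, liver 4, was below the lowest *Bcl6LKOFxrKO* liver, liver 7. Its log2 fold change was 1.02 (SE 0.18, edgeR adjusted p = 0.000831).

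*Col6a2* (NM_146007, chromosome 10 from 76595756 to 76623404, minus strand), which lies beside *Col6a1*, was at 8.94, 6.49, 6.98 and 9.64 CPM in *FxrKO* livers and at 17.6, 22.7, 11.5 and 20.7 CPM in *Bcl6LKOFxrKO* livers. Liver 7 was again the lowest of its group and still above all *FxrKO* livers. The log2 fold change was 1.17 (SE 0.21, edgeR adjusted p = 0.00126).

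*Col6a3* (NM_001243008, chromosome 1 from 90766860 to 90843971, minus strand) encodes the longest of these chains, whose end is released as the peptide endotrophin. It was at 13.4, 9.98, 9.23 and 16.1 CPM in *FxrKO* livers and at 30.0, 40.5, 25.6 and 24.8 CPM in *Bcl6LKOFxrKO* livers. The groups were clear of each other, with 24.8 CPM in the lowest *Bcl6LKOFxrKO* liver and 16.1 CPM in the highest *FxrKO* liver. *Col6a3* rose by 1.30 on the log2 scale (SE 0.20, edgeR adjusted p = 0.000425), the highest estimate of the 10 chains. For each of the 3 type VI chains the exact permutation p was 0.029, and all 15 alternatives called the chain.

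*Col14a1* (NM_181277, chromosome 15 from 55307750 to 55520803, plus strand) encodes the single chain of type XIV collagen. It was at 23.8, 38.8, 31.7 and 40.4 CPM in *FxrKO* livers and at 54.7, 66.2, 66.2 and 68.4 CPM in *Bcl6LKOFxrKO* livers. No values overlapped, and the *Bcl6LKOFxrKO* livers varied least for this chain, with a coefficient of variation of 9.69%. Its log2 fold change was 0.92 (SE 0.16, edgeR adjusted p = 0.000763, exact permutation p = 0.029), and it was called in all 15 alternatives. No other gene of the table overlaps the locus of any of the 10 chains.

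Promoter sequence is shown for 4 of the chains, because they cover fibrils and microfibrils and include the chain with the highest estimate (*Col6a3*) and the one nearest 0 (*Col5a3*). The RefSeq promoter table for GRCm38.p6 (mm10) held 8 windows for 7 of the 10 chains, and none for *Col1a1*, *Col5a2* and *Col14a1*. Each line gives the 250 bases before the annotated start, 5′ to 3′ on the strand of the gene. Capitals mark letters that match the CCAAT box, the GC box or the TATA box on either strand, spelled out after the sequences. Matches were taken anywhere in the window, and their use as promoter elements was not tested.
Col1a2, chr6:4505368-4505617, plus strand: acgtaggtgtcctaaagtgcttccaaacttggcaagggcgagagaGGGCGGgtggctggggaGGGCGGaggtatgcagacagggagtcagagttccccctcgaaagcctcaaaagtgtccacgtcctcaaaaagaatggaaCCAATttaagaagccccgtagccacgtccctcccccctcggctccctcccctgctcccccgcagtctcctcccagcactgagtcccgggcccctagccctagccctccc
Col3a1, chr1:45311288-45311537, plus strand: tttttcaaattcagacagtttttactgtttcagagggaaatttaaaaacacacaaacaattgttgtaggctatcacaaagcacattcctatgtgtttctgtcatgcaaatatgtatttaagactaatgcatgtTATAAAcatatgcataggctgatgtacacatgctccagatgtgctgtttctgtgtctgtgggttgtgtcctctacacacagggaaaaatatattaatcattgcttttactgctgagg
Col5a3, chr9:20815068-20815317, minus strand: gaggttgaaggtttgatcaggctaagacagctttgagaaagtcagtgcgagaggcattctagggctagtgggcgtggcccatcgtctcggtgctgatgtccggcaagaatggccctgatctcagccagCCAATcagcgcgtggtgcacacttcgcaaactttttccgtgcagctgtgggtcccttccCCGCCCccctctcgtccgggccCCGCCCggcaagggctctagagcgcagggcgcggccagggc
Col6a3, chr1:90843972-90844221, minus strand: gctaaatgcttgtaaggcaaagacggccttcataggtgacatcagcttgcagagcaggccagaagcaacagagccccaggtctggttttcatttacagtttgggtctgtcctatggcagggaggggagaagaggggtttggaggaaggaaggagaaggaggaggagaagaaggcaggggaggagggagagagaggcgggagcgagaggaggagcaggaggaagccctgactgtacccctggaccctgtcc

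The promoters shared no one motif among those searched. CCAAT or its reverse complement ATTGG was in the windows of *Col1a2*, 109 bases before the start, and *Col5a3*, 122 bases before it, and 33.8% of all 32851 windows held it. GGGCGG or CCGCCC was in 5 windows, those of *Col1a2*, *Col5a1*, *Col5a3* and both of *Col6a2*, against 32.7% of all windows. TATAAA or TTTATA was in that of *Col3a1*, 117 bases before the start, against 12.4% of all windows. The palindrome TTCNNNGAA, the core of the motif shared by STAT proteins and BCL6, was searched in the same way and was in 0 of the 8 windows and in 7.02% of all windows. The searched letters of 1 motif overlap no letters of another. Base composition also varied, from 35.2% G and C in the *Col3a1* window to 76.4% in that of *Col5a1*, with a median of 52.4% over all windows.

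Per kilobase of transcript, *Col3a1* was the most abundant of the 10 chains in both genotypes, at 8.65 ± 2.31 CPM per kilobase in *FxrKO* livers and 16.3 ± 6.31 in *Bcl6LKOFxrKO* livers (SD, n = 4). *Col14a1* followed in both, at 5.26 ± 1.19 and 9.98 ± 0.967 CPM per kilobase. In *FxrKO* livers *Col5a3* (4.54), *Col1a2* (4.52), *Col6a1* (3.85) and *Col1a1* (3.42 CPM per kilobase) came next, and each of these overlapped its neighbour in the order. *Col6a2* (2.17) and *Col6a3* (1.13) were lower, and *Col5a1* (0.891) and *Col5a2* (0.815 CPM per kilobase) were lowest and overlapped. Only the steps from *Col3a1* to *Col14a1* and from *Col6a2* to *Col6a3* had no overlap between livers. Compared within each liver, *Col1a1* was also above *Col6a2*, and *Col6a3* above *Col5a1*, in all 4 *FxrKO* livers. In *Bcl6LKOFxrKO* livers the order was *Col3a1*, *Col14a1*, *Col1a2* (7.97), *Col6a1* (7.86), *Col1a1* (5.83), *Col6a2* (4.89), *Col5a3* (4.66), *Col6a3* (2.80), *Col5a2* (1.61) and *Col5a1* (1.47 CPM per kilobase). There only the step from *Col6a3* to *Col5a2* had no overlap between livers. Compared within each liver, further steps held in all 4 *Bcl6LKOFxrKO* livers. These were *Col3a1* above *Col14a1*, *Col14a1* above *Col1a2*, *Col1a1* above *Col6a2*, *Col5a3* above *Col6a3* and *Col5a2* above *Col5a1*. *Col5a3* thus went from rank 3 to rank 7 while its own level stayed within its spread, and no test was made of ranks.

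**Figure D3:**
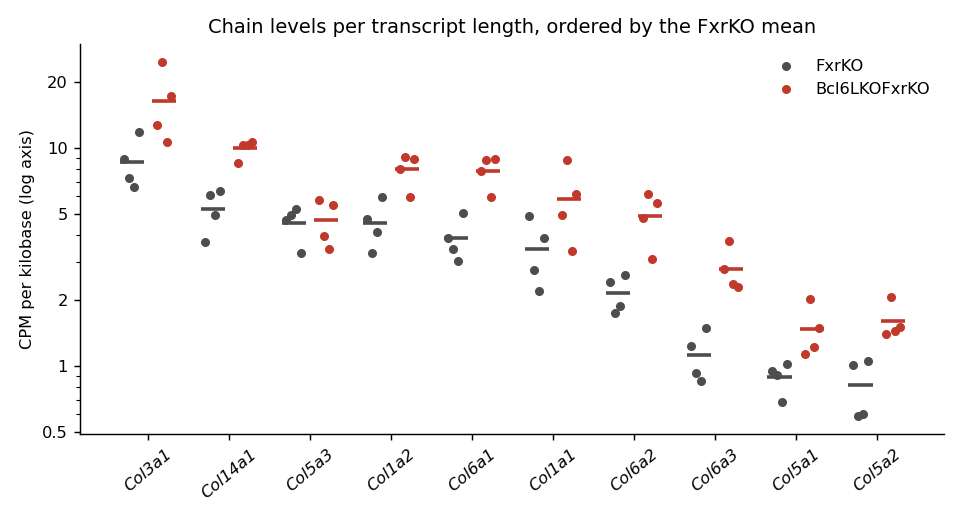
CPM per kilobase of transcript (vertical log axis) of each chain in each liver, *FxrKO* in grey and *Bcl6LKOFxrKO* in red, with lines for the means and chains ordered by the *FxrKO* mean. *Col3a1* is highest and *Col5a1* and *Col5a2* are lowest in both genotypes, and *Col5a3* is the chain whose means nearly coincide, at 4.54 and 4.66.

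Summed over the 10 genes, the chains made up 200.3 ± 29.9 CPM in *FxrKO* livers and 359.6 ± 76.2 CPM in *Bcl6LKOFxrKO* livers (SD, n = 4). Type VI genes gave 17.6% of this sum in *FxrKO* livers and 22.0% in *Bcl6LKOFxrKO* livers, and type V genes 20.1% and 14.2%. The shares of type I genes (21.7% and 21.0%), type III (23.8% and 25.0%) and type XIV (16.8% and 17.8%) were close in the 2 genotypes. The single livers gave 16.4% to 19.0% for type VI in *FxrKO* and 21.1% to 24.0% in *Bcl6LKOFxrKO* livers, with no overlap. For type V they gave 14.7% to 24.0% and 12.0% to 16.4%, which overlap. These shares are a description and were not tested.

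The ratios between chains ask whether the make-up of the trimers and fibrils changed at the RNA level. None of the 8 ratios per kilobase differed between genotypes at an adjusted p under 0.05 (exact two-sided permutation test, Benjamini-Hochberg adjusted over the 8 ratios), and 0 had an unadjusted p under 0.05. The lowest exact p was 0.171, for 3 ratios, and the adjusted value of each was 0.457. With 8 tests the smallest p the permutations can give, 0.029, can pass only where several ratios reach it.

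*Col1a2* to *Col1a1* was 0.972, 1.19, 1.86 and 1.54 in *FxrKO* livers and 1.61, 1.03, 1.76 and 1.44 in *Bcl6LKOFxrKO* livers, with full overlap. The difference of the mean log2 ratios was 0.09, with a 95% interval from -0.57 to 0.74. *Col3a1* to *Col1a1* was 1.83 to 3.06 in *FxrKO* and 2.56 to 3.14 in *Bcl6LKOFxrKO* livers, a log2 difference of 0.13 (interval -0.32 to 0.58). *Col5a1* to *Col1a1* differed by -0.04 (-0.61 to 0.53) and *Col14a1* to *Col1a1* by 0.20 (-0.93 to 1.33) on the log2 scale. A p that misses the threshold does not show that these ratios are alike, and the intervals give the changes that remain possible.

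Within type V, *Col5a3* to *Col5a1* was 4.94, 5.41, 7.68 and 3.23 in *FxrKO* livers and 5.09, 1.94, 2.81 and 3.64 in *Bcl6LKOFxrKO* livers. Livers 6 and 7 were below all *FxrKO* livers and livers 5 and 8 were not. The log2 difference was -0.68 (interval -1.63 to 0.28), the widest of the 8 differences, with an exact p of 0.171. *Col5a2* to *Col5a1* differed by 0.31 (-0.14 to 0.75) on the log2 scale, also at an exact p of 0.171. Within type VI, *Col6a2* to *Col6a1* differed by 0.11 (-0.18 to 0.40, exact p = 0.343) and *Col6a3* to *Col6a1* by 0.28 (-0.13 to 0.69, exact p = 0.171). Liver 8 had the lowest *Col6a3* to *Col6a1* ratio of all 8 livers, 0.26, and livers 5, 6 and 7 had the 3 highest, 0.355 to 0.426.

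**Figure D4:**
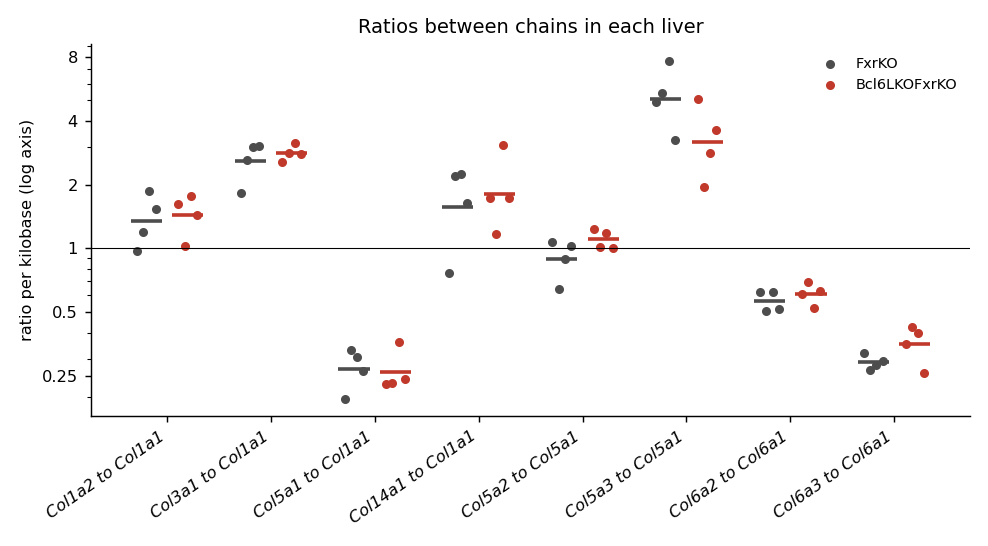
Ratio of the 2 chains per kilobase of transcript (vertical log axis, line at 1) in each liver, *FxrKO* in grey and *Bcl6LKOFxrKO* in red, with lines for the geometric means. The 2 groups overlap in all 8 ratios, and *Col5a3* to *Col5a1* has the widest gap between means.

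Within a genotype the livers ranked alike for most chains. Liver 4 was the highest *FxrKO* liver for 8 of the 10 chains, and liver 6 the highest *Bcl6LKOFxrKO* liver for 7. Liver 7 was the lowest *Bcl6LKOFxrKO* liver for 6 chains, and liver 3 the lowest *FxrKO* liver for 5. With the genotype means taken away, the log2 CPM of *Col3a1* had a Pearson r of 0.97 with the mean of the other 9 chains over the 8 livers, and *Col6a1* and *Col6a2* had r of 0.92 and 0.93. *Col1a1*, *Col1a2*, *Col5a1*, *Col5a2* and *Col6a3* lay between 0.76 and 0.89. *Col14a1* (r = -0.02) and *Col5a3* (r = -0.36) did not follow the others. These are descriptions over 8 livers that share their scaling factors.

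By the same measure, the 10 genes most like the mean of the chains among 12236 genes with counts in every liver were *Mgp*, *Alkbh1*, *Ccdc80*, *Eed*, *Acp2*, *Fstl1*, *Mphosph8*, *Tcp1*, *Ttll1* and *Cavin1*, with r from 0.94 to 0.98. Of these, *Mgp*, the matrix Gla protein, rose by 1.39 and *Ccdc80*, a matrix protein, by 1.20 on the log2 scale. *Fstl1*, a secreted glycoprotein, rose by 0.84 and *Cavin1*, a coat protein of caveolae, by 0.64, with adjusted p of 0.0174, 0.000496, 0.00658 and 0.00736 from edgeR for the 4 genes in this order. The other 6 were not called, with log2 fold changes from -0.38 (*Ttll1*) to -0.06 (*Eed*). These 10 genes were picked as the highest r among 12236 over only 8 livers. Values this high can arise by chance in such a search, and no test of them was made.

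Other genes of the collagen pathway were read from lists by role. Of 8 further fibrillar and type VI chains, 2 passed the filter, *Col27a1* and *Col11a2*. *Col27a1*, a fibrillar chain of cartilage, fell from 16.1 ± 5.43 to 8.58 ± 1.99 CPM (SD, n = 4), which is -0.90 on the log2 scale (edgeR adjusted p = 0.0193), with overlap between the groups. This call was lost without liver 3 (adjusted p = 0.0612), liver 4 (0.0505) or liver 8 (0.0547). *Col11a2* was at 1.02 and 1.26 CPM and was not called.

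Enzymes and chaperones that modify and fold procollagen gave 5 genes called higher and 1 called lower of 16 tested, with a list median of 0.27 on the log2 scale. *Colgalt2*, which adds galactose to hydroxylysine, rose from 1.30 ± 0.715 to 19.0 ± 2.59 CPM (log2 fold change 3.85, adjusted p = 4.39e-07). *Fkbp10*, a chaperone, and *Crtap*, a part of the prolyl hydroxylation complex, rose by 1.35 (adjusted p = 0.0051) and 0.83 (adjusted p = 0.00549). *P4ha2*, a catalytic chain of prolyl hydroxylase, fell by 1.03 on the log2 scale (adjusted p = 0.00177). All 4 adjusted p are from edgeR.

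Of the genes for propeptide cleavage and crosslinking, 3 were called higher and 1 lower of 9 tested, with a median of 0.63. *Adamts2*, which removes the amino-terminal propeptide, rose by 1.31 (adjusted p = 0.000679), *Pcolce*, which enhances removal of the carboxy-terminal one, by 1.02 (adjusted p = 0.00252) and the lysyl oxidase *Loxl4* by 2.30 on the log2 scale (adjusted p = 0.00727). *Bmp1*, the carboxy-terminal proteinase, fell from 149.5 ± 16.1 to 99.0 ± 15.5 CPM (SD, n = 4, adjusted p = 0.00399). *Lox* had at most 4 counts in a liver and was not tested.

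Proteins of the fibril surface gave 8 called higher and 1 lower of 13 tested, with a median of 0.60. The small leucine-rich proteoglycans *Bgn* (0.97, adjusted p = 8.21e-05), *Dcn* (1.05, adjusted p = 0.000145) and *Prelp* (0.82, adjusted p = 0.00129 from edgeR) rose on the log2 scale. *Fn1*, the gene of fibronectin, which hepatocytes also secrete, fell from 1649 ± 252.6 to 936.1 ± 268.5 CPM (SD, n = 4, adjusted p = 0.0056).

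Collagen receptors gave 5 called higher and 3 lower of 9 tested, with a median of 0.78. *Ddr1*, a collagen-binding receptor kinase, rose by 3.19 (adjusted p = 0.000202), and *Mrc2*, which takes up collagen fragments, and *Antxr1* rose by 1.41 (adjusted p = 0.00064) and 1.17 (adjusted p = 0.0166) on the log2 scale. The integrin chain *Itga10* fell by 1.25 (adjusted p = 0.0133), *Itgb1*, the common integrin chain of collagen receptors, by 0.37 (adjusted p = 0.0225) and *Antxr2* by 0.45 (adjusted p = 0.0248 from edgeR). The call of *Itgb1* was lost without liver 2, 4 or 5 (adjusted p up to 0.0723), that of *Antxr2* without liver 3, 4 or 5 (up to 0.0764) and that of *Antxr1* without liver 7 (0.0553). Over the list, 3 receptors were called higher without liver 2, 3 or 7, and 1 was called lower without liver 4 or 5.

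Genes for collagen degradation and its inhibitors gave 6 called higher of 7 tested in edgeR, and the seventh, *Mmp13*, had an adjusted p of 0.356. Their median was 1.09 on the log2 scale. Between 4 and 6 were called in the alternatives. It was 4 with DESeq2, without liver 2 or 8, and, of 4 tested, with at least 10 counts required in every liver. *Mmp14*, a membrane-bound collagenase, rose from 55.9 ± 6.32 to 122.4 ± 26.7 CPM (SD, n = 4, adjusted p = 0.000121). The gelatinase *Mmp2* rose by 1.23 (adjusted p = 0.00164) and its inhibitor *Timp2* by 0.79 (adjusted p = 0.00163 from edgeR). Of 7 tested profibrotic ligands, 4 were called higher, with a median of 0.62. *Pdgfa*, a growth factor for stellate cells, rose by 2.71 (adjusted p = 2.33e-06), *Tgfb1* by 0.62 (adjusted p = 0.0246) and *Pdgfb* by 0.94 (adjusted p = 0.0366 from edgeR). With total counts alone, 1 of the ligands was called, and *Tgfb1* and *Pdgfb* had adjusted p of 0.0686 and 0.062. *Tgfb1* was also lost without liver 2, 4 or 6 (adjusted p up to 0.075), and *Pdgfb* without liver 2, 3, 4, 6, 7 or 8 (up to 0.101). Without liver 2, 4 or 6 only *Pdgfa* was called. *Tgfb3*, the remaining called ligand (log2 fold change 0.96, edgeR adjusted p = 0.0442), was thus lost there as well. Without liver 3 or 8, 2 ligands were called. With at least 10 counts required in every liver only 4 ligands were tested, and 2 of these were called.

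All tested markers of the cells that make collagen had positive log2 fold changes, and most of those called were stellate cell markers. Markers that did not pass the filter had at most 20 counts in a liver and went both ways. *Msln* (1.15 in *FxrKO* and 0.51 CPM in *Bcl6LKOFxrKO* livers), *Upk3b* (1.10 and 0.45), *Upk1b* (0.22 and 0.02) and *Fap* (0.17 and 0.12) had lower means. Those of *Cnn1* (0.27 and 0.42 CPM) and *Gli1* (0.19 and 0.20) were higher. Of 13 hepatic stellate cell markers, 11 were called higher in edgeR, their median log2 fold change was 0.95, and their summed level was 177.7 to 241.7 CPM in *FxrKO* livers and 330.9 to 481.5 CPM in *Bcl6LKOFxrKO* livers. *Cygb* (1.50, adjusted p = 7.75e-05), *Rgs5* (1.09, adjusted p = 8.21e-05) and *Pdgfrb* (1.06, adjusted p = 0.000347) had the smallest adjusted p. Of 6 tested myofibroblast markers 2 were called higher, *Tpm2* (4.61, adjusted p = 0.00018) and *Tagln* (0.82, adjusted p = 0.00833), and the summed level went from 30.5 to 44.0 CPM to 101.0 to 178.2 CPM, mostly through *Tpm2*. *Acta2*, the smooth muscle actin of myofibroblasts, was at 6.77 ± 2.09 and 11.4 ± 4.88 CPM (SD, n = 4) and was not called (adjusted p = 0.0787). Portal fibroblast and mesothelial markers gave 2 called higher of 6 tested, *Thy1* (1.41, adjusted p = 0.00467) and *Cd34* (1.03, adjusted p = 0.0221), with sums of 14.4 to 20.9 and 21.0 to 31.7 CPM. *Cd34* lost its call without liver 2 (adjusted p = 0.0513) or liver 3 (0.0677). Within a genotype these markers did not all follow the chains. Among *Bcl6LKOFxrKO* livers *Cygb* was highest in liver 8, *Rgs5* in liver 7 and *Pdgfrb* in liver 6. The summed collagen level was highest in liver 6 (453.9 CPM) and lowest in liver 7 (276.3 CPM). With the genotype means taken away, r with the mean of the chains was 0.71 for *Acta2* and 0.42 for *Pdgfrb*. The share of stellate cells, and its part in the collagen values, was not tested.

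Markers of other liver cells gave mixed counts. Cholangiocyte markers gave 4 called higher of 7 tested, led by *Krt18* (log2 fold change 1.78, adjusted p = 0.000383), *Krt8* (1.60, adjusted p = 0.000391) and *Spp1* (43.3 against 87.1 CPM, adjusted p = 0.00157), and the sums of the list were 373.4 to 604.5 and 936.4 to 1849 CPM. Most of these sums came from *Krt8* and *Krt18*, which hepatocytes also express. *Sox9* (4.36 against 2.51 CPM, log2 fold change -0.81, adjusted p = 0.0773) and *Cdh1* (-0.36, adjusted p = 0.358) had negative values and were not called, and 1 marker of this list was called lower with total counts alone, without liver 3 or without liver 6. Endothelial markers gave 2 of 8, *Vwf* (1.60, adjusted p = 8.26e-05) and *Stab2* (0.63, adjusted p = 0.00365), with sums of 145.1 to 202.6 and 209.2 to 266.7 CPM. Macrophage markers gave 2 of 8, *Lyz2* (0.81, adjusted p = 0.00144) and *Cd68* (0.93, adjusted p = 0.00211), with sums of 269.5 to 362.3 and 380.9 to 576.0 CPM. In both lists 6 of the 8 markers were not called, among them *Cdh5*, *Lyve1* and *Timd4* with log2 fold changes of -0.06, -0.04 and -0.32, and 16.2% of all tested genes were called higher. Hepatocyte markers gave 1 called higher and 2 lower of 7, *Alb* (1.60, adjusted p = 1.86e-06), *Ttr* (-0.76, adjusted p = 0.00219) and *Apob* (-0.45, adjusted p = 0.0448), and their summed level of 63428 to 72332 CPM in *FxrKO* livers and 149103 to 172770 CPM in *Bcl6LKOFxrKO* livers was set by *Alb*. The call of *Apob* was lost with at least 10 counts required in every liver (adjusted p = 0.0558) and without any one liver except liver 6 (up to 0.114). No marker found in the table was at 0 in all livers. The part of these cells in the collagen values was not tested.

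**Figure D5:**
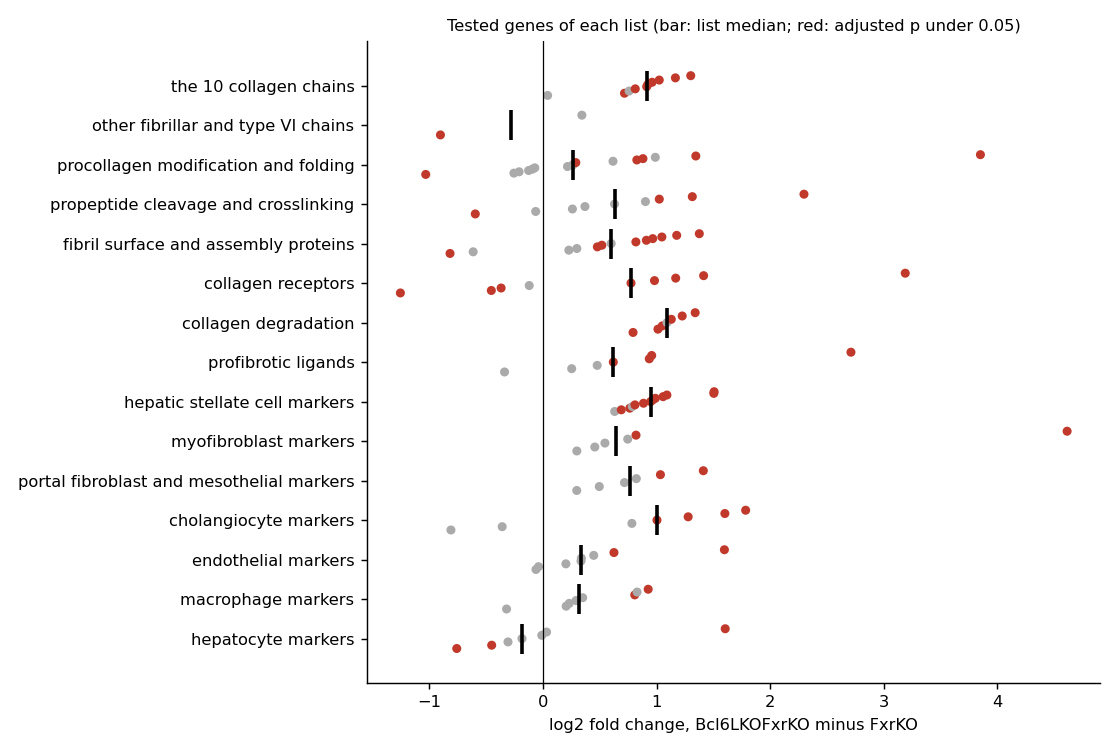
Log2 fold change, *Bcl6LKOFxrKO* minus *FxrKO* (horizontal axis), of every tested gene of each list, in red where the adjusted p was under 0.05, with a black bar at the list median. The collagen chains have a median of 0.92 and run from 0.04 to 1.30, the stellate cell markers have a median of 0.95 and run from 0.63 to 1.51, and the hepatocyte markers have a median of -0.18.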

How the data were processed

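Liver RNA of 4 *FxrKO* and 4 *Bcl6LKOFxrKO* males was analysed, grouped by the sample labels. The libraries were made with a stranded poly-A kit and sequenced as 100 bp single reads. Alignment by the authors was to mm10 with STAR 2.5.2, which kept a read only if it mapped to 1 place with no more than 4 mismatches. The deposited values are raw exon counts per gene, made with HOMER 4.10 from 1 transcript of each gene. The tool versions are those of the submitters' processing notes. The stated counting options name no strand, so overlapping and antisense genes are uncertain. The deposited table also gives each transcript's length, a value of another kind that was used for levels per kilobase.

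Counts were fitted with edgeR 4.0.16 in R 4.3.3 (filterByExpr, TMM, robust quasi-likelihood fits), with Benjamini-Hochberg adjustment over 12340 of 24940 genes and a call at an adjusted p under 0.05. CPM use the TMM factors. Permutation tests were exact and two-sided over 70 orderings of the 8 livers. Labels do not say that the livers came from separate litters or cages, so p-values measure the spread between these 8 samples. Alternatives were DESeq2 1.42.0, limma 3.58.1 voom with quality weights, other scalings and filters, a log2 fold change above 0.5, a pseudocount of 0.5 on ratios, and each liver left out. The fits were tested on simulated data. The 10 chains and the gene lists were chosen with earlier results of these data known. From each list, the 3 genes of smallest adjusted p called in each direction were named. *Col11a2*, *Mmp13*, *Lox*, *Acta2*, *Tgfb3*, *Sox9*, *Cdh1*, *Cdh5*, *Lyve1* and *Timd4* were named after their values were seen. So were *Msln*, *Upk1b*, *Upk3b*, *Fap*, *Cnn1* and *Gli1*. The depth of 7586241 to 11839503 counts per liver makes genes with few counts imprecise.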

Additional observations from a re-analysis of the deposited data

Results flagged for a closer look

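In 3 of 38 groups of 4 values (each chain, each ratio and the summed CPM, in each genotype), 1 liver stood apart by Dixon's test, with a gap to its nearest neighbour above the 95% critical share of the whole range. Chance flags about 1 in 20 groups, which is 1.9 of the 38. *Col5a2* in liver 6 was above the other *Bcl6LKOFxrKO* livers with a gap of 0.835 of the range. *Col14a1* in liver 5 was below the others with a gap of 0.839. The *Col5a1* to *Col1a1* ratio in liver 7 was above those of the other *Bcl6LKOFxrKO* livers with a gap of 0.872. *Col5a2* and *Col14a1* kept their calls in edgeR without these livers.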

How the results depend on the processing

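No paired analysis was possible because the labels number the libraries 1 to 4 and 5 to 8, with no number shared between genotypes, and name no pairs. Some animal numbers in the titles are consecutive across genotypes, and the labels do not say that this marks a litter or batch. Of the fits that keep all livers, total counts alone as the scaling moved the number of genes called lower from 1665 to 2956 and the log2 fold change of *Col5a3* from 0.04 to -0.12. The chains called higher were 8 of 10 in edgeR, between 7 and 9 under the alternatives that keep all livers (9 with DESeq2, 7 with limma voom and 7 without a filter on low counts) and between 6 and 9 with each liver left out, and 0 were called lower in any. The log2 fold change of *Col5a3* was between -0.088 and 0.165 with each liver left out. Of the 70 values of single chains in the fits that keep all livers, 66 kept their direction and their side of the threshold, and of the 80 values with a liver left out, 69 did. *Col1a2*, *Col5a2*, *Col6a1*, *Col6a2*, *Col6a3* and *Col14a1* were called in all 15. With a pseudocount of 0.5, all 8 ratios kept their direction and their side of the threshold. Each chain had at least 31 counts in every liver, so this setting could change the ratios little. Ratios with a liver left out were not tested. Without liver 1 the log2 differences of *Col1a2*, *Col3a1* and *Col14a1* to *Col1a1* were -0.07, -0.03 and -0.15, against 0.09, 0.13 and 0.20 with all livers. Without liver 7 those of *Col1a2* and *Col14a1* to *Col1a1* were -0.01 and -0.05. The log2 difference of *Col5a1* to *Col1a1* went from -0.04 to 0.06 without liver 2. It was 0.02 without liver 3, 5 or 6. The ratios within type V and within type VI kept their sign with each liver left out. Of 42 genes named from the lists, 34 kept their calls in every alternative that tested them and 0 changed direction. The depth limits mainly *Col5a1* and *Col5a2*, with the fewest counts.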
